A study of Mus musculus with 6 samples.

Results

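The genes described here encode the machinery through which secreted and membrane proteins enter the endoplasmic reticulum (ER), fold there and, when folding fails, raise an alarm. 39 genes were chosen by symbol, from the translocon, the signal peptidase, the ER chaperones and the unfolded protein response, out of 28564 genes in the count table. All 39 were found, and all 39 were among the 15122 genes that passed the filter on low counts. They were measured by RNA sequencing in crypt epithelial cells of the small intestine from male mice aged 13 weeks. 3 samples came from wild-type control mice (C57Bl/6) and 3 from Apln-/- mice, which lack apelin, a secreted peptide hormone. The cells of both groups had been released with Liberase TL and sorted as live single cells that were positive for EpCAM and CD44 and negative for CD31 and CD45. The knockout replicates are numbered 1 to 3 as in the titles; their columns in the deposited table are named KO1, KO3 and KO4. RNA of both groups was amplified from small amounts before sequencing. The labels call the samples biological replicates and do not say whether animals were pooled, nor which part of Apln is deleted or in which cells.

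A nascent secretory protein passes through the Sec61 channel, helped by the translocon-associated protein complex (Ssr1 to Ssr4), and the signal peptidase cuts off its signal sequence. Hsp70 and Hsp90 chaperones, lectin chaperones and disulfide isomerases then fold it. Unfolded protein in the ER is sensed by IRE1 (IRE1alpha from Ern1 and IRE1beta from Ern2), by ATF6 and by PERK, which together raise chaperone genes, restrain protein synthesis and feed misfolded proteins to degradation. Crypts hold the Paneth and goblet cells, which secrete heavily, and IRE1beta is known as a form of the sensor found in mucus-secreting epithelia.

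Apln had 29, 7 and 5 counts in the wild-type libraries and 0 in each knockout library. Library totals were 23046880 to 26513481 counts, but 5 very abundant entries took 72.4% ± 2.49 of them in wild type, against 78.0% ± 0.822 in knockout (SD, n = 3). This left 6037237 to 7616648 counts for all other genes in a wild-type library and 5144725 to 5623112 in a knockout library. The 39 genes together held 43461 to 77373 counts per library, 0.845% to 1.13% of the counts outside those entries. Levels are given in CPM, read counts scaled to a common library size by the trimmed mean of M values (TMM). The deposited values are the authors' raw counts, and differences were tested with edgeR's quasi-likelihood test.

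The sensors had negative fold changes, knockout over wild type, most small translocon subunits and all signal peptidase subunits had positive ones, and the chaperones had both. The groups overlapped for 30 of the 39 genes. None of the 39 passed the test at a Benjamini-Hochberg adjusted p below 0.05, where 0.172% of all tested genes did (26 of 15122, 17 higher and 9 lower). The lowest adjusted p was 0.0575, for Ern2 (edgeR's quasi-likelihood test). At an unadjusted p below 0.05 there were 10 of the 39 (25.6%), beside 15.2% of all tested genes. 5 of these were higher in knockout (12.8%, beside 7.53% of all tested genes), namely Ssr4, Sec61b, Spcs2, P4hb and Spcs1. The other 5 were lower (12.8%, beside 7.65%), namely Ern2, Hyou1, Atf6, Ern1 and Sec63. The 3 knockout values lay wholly above the 3 wild-type values for 4 genes (10.3%, beside 11.3% of all tested genes) and wholly below them for 5 (12.8%, beside 9.56%). The median log2 fold change, knockout over wild type, was 0.11 over the 39 and -0.0062 over all tested genes. 23 of the 39 values were positive and 16 negative.

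The counts at the unadjusted threshold changed when single libraries were left out, while Ssr4, Ern2 and Hyou1 stayed below it without each library in turn. The number higher was 3 without wild-type replicate 1 or 2, 9 without wild-type replicate 3 and 1 (Ssr4) without knockout replicate 2. The number lower was 3 without wild-type replicate 2, 2 (Ern2 and Hyou1) without knockout replicate 1 or 3 and 7 without knockout replicate 2. Over all tested genes, those below it in either direction numbered 2296 with all libraries and 3073 without wild-type replicate 3. They numbered 2369 and 2186 without wild-type replicates 1 and 2, and 1342, 1781 and 1640 without knockout replicates 1, 2 and 3. With the DESeq2 Wald test in place of edgeR's test, Ern2 and Hyou1 passed the adjusted threshold, among 551 genes that did.

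**Figure D1:**
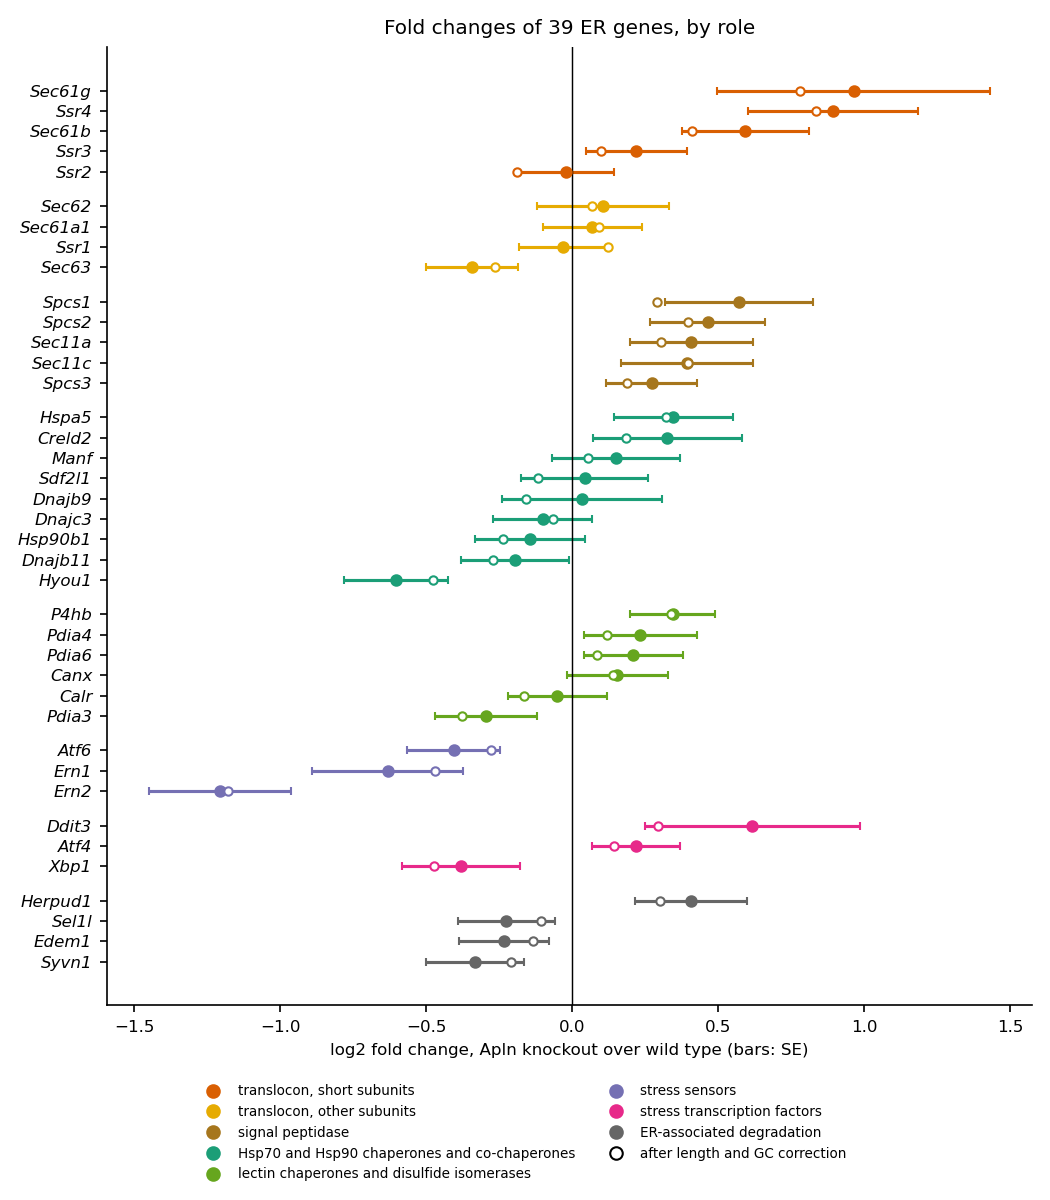
Log2 fold change of each of the 39 genes, Apln knockout over wild type, grouped by role (filled points, bars show SE, 3 libraries against 3); open points are the values after a correction for length and GC content. The sensors lie at -1.21 to -0.41, all 5 signal peptidase subunits lie at 0.27 to 0.57, and the chaperone groups lie on both sides of 0.

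Among the 5 small subunits of the translocon, Ssr4, Sec61b and Sec61g were 1.51 to 1.95 times as high in knockout as in wild type, while Ssr2 and Ssr3 were near their wild-type levels. Sec61b and Sec61g encode the short tail-anchored beta and gamma subunits beside the channel's pore (96 and 68 codons), and Ssr2, Ssr3 and Ssr4 the beta, gamma and delta subunits of the translocon-associated complex (183, 185 and 172 codons). Ssr4 (X chromosome, 73787028 to 73790830 of mm10) was at 9.15, 6.84 and 17.7 CPM in wild-type replicates 1, 2 and 3. In knockout replicates 1, 2 and 3 it was at 22.5, 22.4 and 17.7 CPM. The groups touched at wild-type replicate 3 and knockout replicate 3 without overlapping, and the means were 11.2 ± 5.70 and 20.9 ± 2.75 CPM (SD, n = 3). The log2 fold change was 0.89 ± 0.29 (SE), and edgeR's quasi-likelihood test gave an adjusted p of 0.179. Without wild-type replicate 3 it was 1.39, and Ssr4 then passed the adjusted threshold of that test. In that fit 358 genes passed it, against 26 with all libraries.

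Sec61b (chromosome 4, 47474658 to 47483242) was at 9.47, 9.08 and 14.3 CPM in the wild-type libraries and at 16.5, 18.8 and 14.2 CPM in the knockout libraries. Wild-type replicate 3 lay just above knockout replicate 3, so the groups overlapped by that pair. The log2 fold change was 0.59 ± 0.22, with an adjusted p of 0.230 in the edgeR test. Sec61g was the scarcest of the 39 genes, with 18 to 77 counts per library. Its levels were 1.62, 0.619 and 2.02 CPM in wild type, against 2.44, 2.26 and 3.63 CPM in knockout, so the groups did not overlap (log2 fold change 0.96 ± 0.47, edgeR adjusted p 0.358). Its counts are uncertain, because a processed pseudogene, Gm10177, is 99.1% identical to it over 424 bases and held more reads than Sec61g itself, 574 over the 6 libraries beside 301. Gm10177 was at 2.77 ± 1.20 CPM in wild type, against 5.15 ± 0.571 CPM in knockout, a log2 fold change of 0.89 ± 0.34 (edgeR adjusted p 0.240), so that the gene and its copy differed in the same direction.

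Ssr3 was at 110, 105 and 81.9 CPM in wild type, against 101, 138 and 107 CPM in knockout, with knockout replicate 2 alone above all wild-type libraries. Ssr2 was at 40.1, 45.9 and 34.7 CPM in wild type, against 40.2, 44.7 and 34.1 CPM in knockout, a log2 fold change of -0.021 ± 0.16. Within this group of 5 the log2 fold changes ran from -0.021 to 0.96. Exons of the pseudogene Gm10704 overlap Ssr2 over 20.1% of the length of its longest transcript, and a stretch of 366 bases is 98.6% identical to Rtraf, so its counts are uncertain.

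The larger parts of the translocon were at like levels in both groups, apart from Sec63. Sec61a1, the pore itself, was at 67.8, 69.5 and 84.8 CPM in wild type, against 68.3, 94.1 and 70.6 CPM in knockout (log2 fold change 0.069 ± 0.17). Ssr1, the alpha subunit of the translocon-associated complex, had a log2 fold change of -0.032 ± 0.15, and Sec62, which serves post-translational entry, one of 0.11 ± 0.23. Sec63, the partner of Sec62 whose J domain recruits the chaperone BiP, was at 38.9, 34.9 and 31.9 CPM in wild type, against 26.8, 31.8 and 24.7 CPM in knockout. Its groups lay side by side without overlap, 31.9 CPM in wild-type replicate 3 against 31.8 CPM in knockout replicate 2. Its log2 fold change was -0.34 ± 0.16, with an adjusted p of 0.329 in the edgeR test. An antisense transcript, Gm44170, overlaps Sec61a1 over 17.3% of the length of its longest transcript, and no strand setting of the counting is stated, so the reads of this pair cannot be told apart. Reads counted to Gm44170 came to 36.3% of those of Sec61a1. Gm44170 was at 23.5 ± 5.58 CPM in wild type, against 32.5 ± 5.54 CPM in knockout (log2 fold change 0.46 ± 0.19, edgeR adjusted p 0.281).

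All 5 subunits of the signal peptidase complex had positive fold changes, with a median log2 value of 0.41, and Spcs1 and Spcs2 had unadjusted p-values below 0.05. The groups overlapped for each of the 5. Spcs1, a small regulatory subunit, was at 12.4, 8.63 and 16.8 CPM in wild type, against 16.3, 24.5 and 15.5 CPM in knockout. Its log2 fold change was 0.57 ± 0.25 and its adjusted p 0.313 in the edgeR test. Spcs2, which links the complex to the Sec61 channel, was at 19.1, 12.9 and 17.5 CPM in wild type, against 22.5, 26.8 and 19.0 CPM in knockout. Only knockout replicate 3 fell within the wild-type range for Spcs2 (log2 fold change 0.46 ± 0.20, edgeR adjusted p 0.286). Exons of Glt8d1 overlap Spcs1 over 20.3% of the length of its longest transcript. In both genes wild-type replicate 2 was the lowest library and knockout replicate 2 the highest.

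Sec11a and Sec11c encode the alternative catalytic subunits. Sec11a was at 17.2, 13.8 and 20.7 CPM in wild type, against 19.0, 29.3 and 20.3 CPM in knockout (log2 fold change 0.41 ± 0.21). Sec11c was at 16.05, 9.56 and 18.0 CPM in wild type, against 20.7, 19.5 and 17.1 CPM in knockout (0.39 ± 0.23). Spcs3, an accessory subunit needed for cleavage, was at 43.1, 36.1 and 34.9 CPM in wild type, against 49.1, 48.9 and 39.8 CPM in knockout (0.27 ± 0.16). Summed over the complex, the level was 98.9 ± 15.5 CPM in wild type, against 129 ± 18.6 CPM in knockout (SD, n = 3). The lowest knockout library, at 112 CPM, stood above the highest wild-type libraries at 108 CPM.

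**Figure D2:**
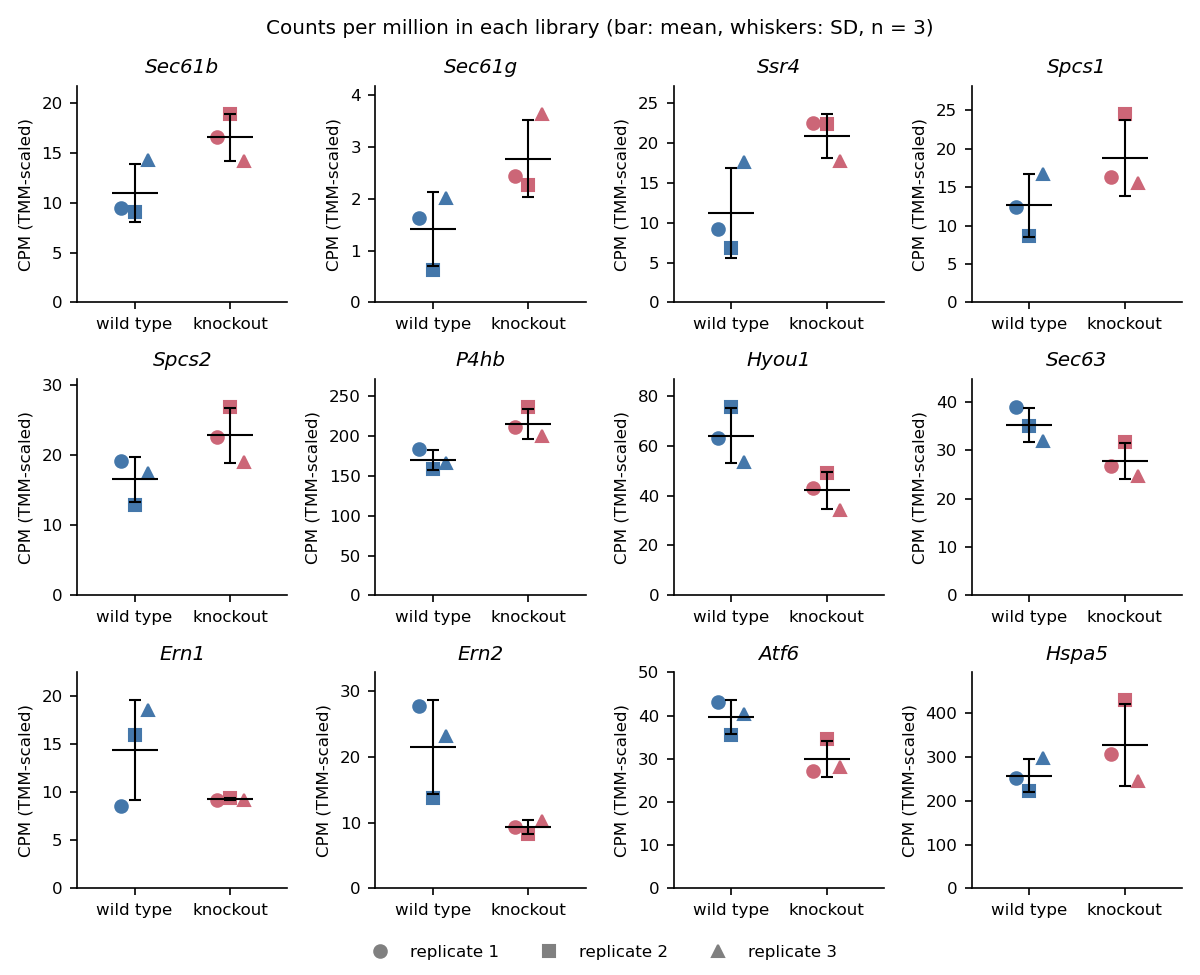
Level of 12 of the 39 genes in each library, in TMM-scaled CPM on axes that start at 0; marker shape gives the replicate number, horizontal bars the mean and whiskers the SD (n = 3). Ern2 shows the clearest gap, 13.7 to 27.7 CPM in wild type against 8.25 to 10.3 CPM in knockout, while the Hspa5 groups overlap.

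Many chaperone genes carry the ER stress element (ERSE) in their promoters, the sequence through which ATF6, with the factor NF-Y, and XBP1 switch them on. It was searched as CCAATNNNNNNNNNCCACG on both strands in the 250 bases before the RefSeq start of each gene (RefSeq, GRCm38.p6); 31 of the 39 genes had a promoter there. The element was found in 8 of those 31 (25.8%) and in 37 of all 32851 promoters (0.113%). A second form, ATTGG and CCACG with 1 base between, was found in 1 of the 31 (3.23%), Herpud1, and in 10 of all promoters (0.0304%). The part CCACG alone, which lies inside both forms, was in 67.7% of the 31 and in 28.3% of all promoters. The elements are shown with 20 bases on either side, read 5′ to 3′ on the strand of the gene, since several of the chaperone genes described next share them. Capitals mark the paired parts of the element, CCAAT or ATTGG on one side and CCACG or CGTGG on the other.
Hspa5, chr2:34772005-34772063, plus strand: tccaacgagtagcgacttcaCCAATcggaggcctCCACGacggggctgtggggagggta
Hsp90b1, chr10:86705513-86705676, minus strand: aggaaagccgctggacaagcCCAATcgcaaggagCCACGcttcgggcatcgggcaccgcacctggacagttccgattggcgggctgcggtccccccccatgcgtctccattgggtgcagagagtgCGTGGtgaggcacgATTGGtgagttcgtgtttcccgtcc
Dnajc3, chr14:118937807-118937865, plus strand: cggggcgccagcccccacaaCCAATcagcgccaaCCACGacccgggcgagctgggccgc
Creld2, chr15:88819500-88819558, plus strand: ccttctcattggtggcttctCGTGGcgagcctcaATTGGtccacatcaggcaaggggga
Canx, chr11:50325780-50325838, minus strand: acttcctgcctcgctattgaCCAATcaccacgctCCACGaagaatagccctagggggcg
Calr, chr8:84847055-84847113, minus strand: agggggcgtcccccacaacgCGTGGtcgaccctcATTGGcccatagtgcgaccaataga
Pdia6, chr12:17266471-17266529, plus strand: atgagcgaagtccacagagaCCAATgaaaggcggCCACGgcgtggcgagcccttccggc
Herpud1, chr8:94386357-94386407, plus strand: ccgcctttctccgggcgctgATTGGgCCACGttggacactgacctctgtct
Syvn1, chr19:6046512-6046570, plus strand: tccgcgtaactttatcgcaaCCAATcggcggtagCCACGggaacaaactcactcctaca

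These sequences belong to genes of 3 roles: 4 of 7 Hsp70 and Hsp90 genes with a promoter, 3 of 6 lectin chaperones and isomerases, and 2 of 4 degradation genes. No match was found for the 4 small and 3 other translocon subunits, the 3 signal peptidase subunits, Ern1 or the 3 stress transcription factors that had a promoter. Hsp90b1 held a pair of elements, one on each strand, 212 to 194 and 107 to 89 bases before the start. In Syvn1 the element lay closest to the start, 44 to 26 bases before it. Ssr2, Sec61a1, Spcs3, Sec11c, Hyou1, Manf, Ern2 and Atf6 had no entry.

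The Hsp70 and Hsp90 chaperones and their helpers lay on both sides of their wild-type levels: 5 of 9 fold changes were positive, 4 were negative, and the median log2 fold change was 0.032. Hspa5, which encodes the Hsp70 chaperone BiP, the central chaperone of the ER, was at 252, 223 and 296 CPM in wild type, against 307, 429 and 244 CPM in knockout. Knockout replicate 2 was the highest of the 6 libraries and knockout replicate 3 lay among the wild-type values, so the groups overlapped (log2 fold change 0.35 ± 0.20, edgeR adjusted p 0.460). Hsp90b1, which encodes the ER Hsp90 GRP94, was at 484, 440 and 446 CPM in wild type, against 410, 523 and 306 CPM in knockout (-0.15 ± 0.19). The SD over libraries was 24.1 CPM in wild type, against 108 CPM in knockout. A pseudogene, 1810014B01Rik, overlaps Hsp90b1 and shares 273 identical bases with it; its reads came to 15% of those of Hsp90b1.

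Hyou1, a large Hsp70-like protein that exchanges the nucleotide of BiP, went the other way from Hspa5. It was at 63.1, 75.4 and 53.5 CPM in wild type, against 42.9, 49.0 and 34.4 CPM in knockout, with no overlap between the groups. The means were 64.0 ± 10.9 and 42.1 ± 7.37 CPM (SD, n = 3), a log2 fold change of -0.60 ± 0.18, with an adjusted p of 0.145 in the edgeR test. The unadjusted p of Hyou1 stayed below 0.05 without each library in turn, at 0.0020 to 0.0370 in edgeR's quasi-likelihood test across all genes. With the DESeq2 Wald test its adjusted p was 0.0211.

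The BiP co-chaperones of the J-protein family were near 0 or slightly negative, with log2 fold changes of 0.032 ± 0.27 for Dnajb9, -0.20 ± 0.19 for Dnajb11 and -0.10 ± 0.17 for Dnajc3. Dnajb9 was at 9.83, 18.8 and 8.503 CPM in wild type, where replicate 2 stood alone, and at 11.5, 12.0 and 14.5 CPM in knockout. Among the small secretory-pathway genes that stress is known to raise, Creld2 had a log2 fold change of 0.33 ± 0.26, Manf 0.15 ± 0.22 and Sdf2l1 0.042 ± 0.22. Creld2 was at 7.13, 7.74 and 11.5 CPM in wild type, against 11.2, 13.8 and 7.97 CPM in knockout, with knockout replicate 3 inside the wild-type range.

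Of the 6 lectin chaperones and disulfide isomerases, P4hb was higher in every knockout library and the rest overlapped. P4hb encodes protein disulfide isomerase itself. It was at 184, 159 and 166 CPM in wild type, against 211, 236 and 200 CPM in knockout, a log2 fold change of 0.34 ± 0.15 (edgeR adjusted p 0.287). Pdia3, the isomerase that works with the lectin chaperones on glycoproteins, was lower, at 223, 187 and 162 CPM in wild type, against 164, 175 and 126 CPM in knockout (-0.30 ± 0.17). The lectin chaperones Canx (0.15 ± 0.17) and Calr (-0.052 ± 0.17) and the isomerases Pdia4 (0.23 ± 0.19) and Pdia6 (0.21 ± 0.17) had overlapping groups.

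Among the folding genes, the knockout libraries stood well apart from one another. Knockout replicate 2 was the highest of the 6 libraries for 10 of these 15 genes and knockout replicate 3 the lowest for 7 of them. Summed over the 9 Hsp70 and Hsp90 genes, the level was 933, 879 and 955 CPM in wild type, against 893, 1170 and 702 CPM in knockout. The means were 922 ± 39.4 and 922 ± 235 CPM (SD, n = 3). Without knockout replicate 2 the log2 fold change of Hsp90b1 was -0.35 and that of Hspa5 0.10.

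**Figure D3:**
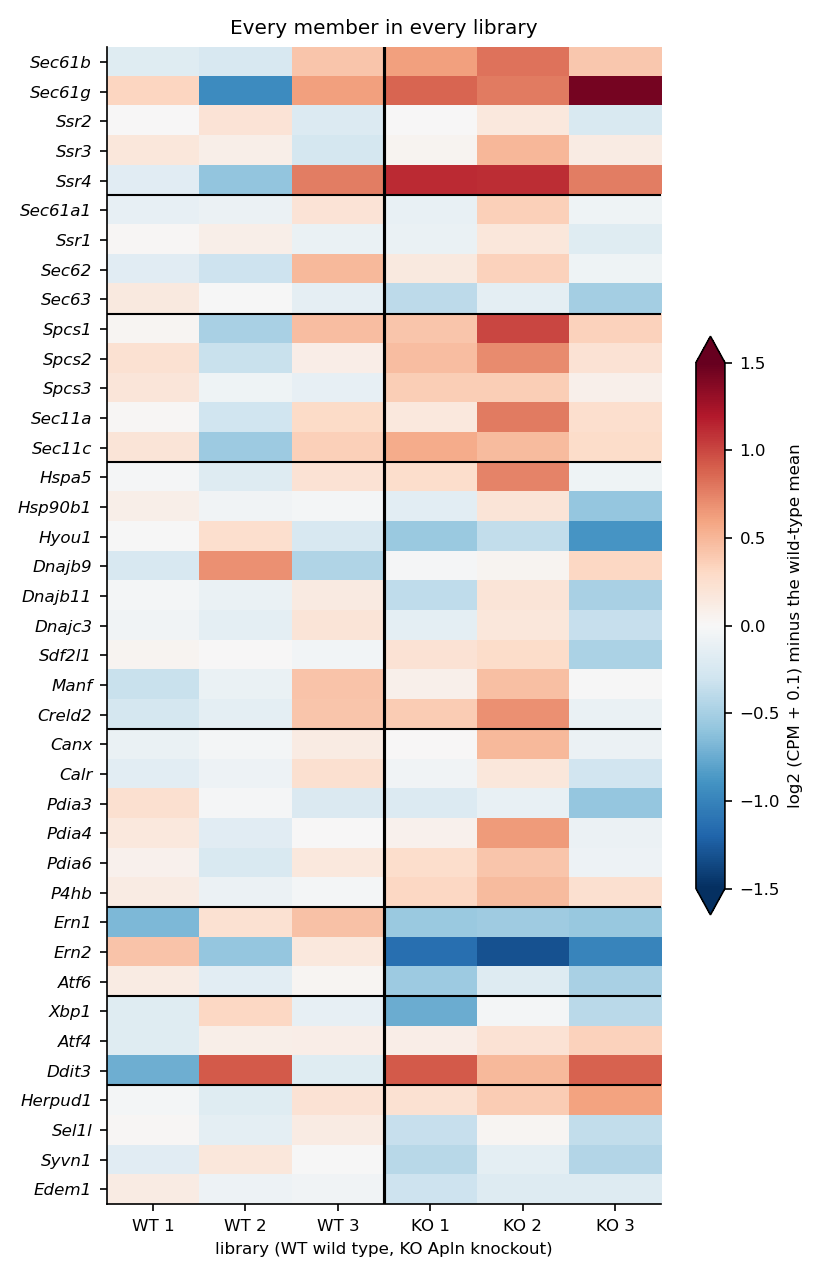
Level of every one of the 39 genes in each library, as log2 (CPM + 0.1) minus the mean of the 3 wild-type libraries; rows are grouped by role in the order of the text. The sensors form a blue block over the 3 knockout libraries, while knockout replicate 2 is the highest library in 10 of the 15 chaperone and isomerase rows and knockout replicate 3 the lowest in 7.

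The sensor genes chosen, Ern1, Ern2 and Atf6, were lower in knockout, 3 of 3 at an unadjusted p below 0.05. Of all tested genes 7.65% were, and none of the 3 had an adjusted p below 0.05. After the correction for length and GC content 1 of the 3, Ern2, had an unadjusted p below 0.05. So did 1780 of the 15122 tested genes, in either direction. Eif2ak3 (PERK) and Atf6b were listed with their branches and are not among the 3. Both were lower in knockout on average, with overlapping groups and unadjusted p-values above 0.05 in edgeR's quasi-likelihood test. Ern2 (chromosome 7, 122169893 to 122186207, minus strand) encodes IRE1beta, the epithelial form of the kinase and RNase that splices Xbp1 mRNA. It was at 27.7, 13.7 and 23.1 CPM in wild type, against 9.37, 8.25 and 10.3 CPM in knockout. Every knockout library was below every wild-type library, and the means were 21.5 ± 7.10 and 9.30 ± 1.02 CPM (SD, n = 3). The log2 fold change was -1.21 ± 0.24 (2.31-fold lower), and edgeR's quasi-likelihood test gave an adjusted p of 0.0575. Over 17 other settings the log2 value ran from -1.46 to -0.999 and the adjusted p from 8.6e-06 to 0.378. It passed the threshold with the DESeq2 Wald test (adjusted p 0.000299), and in the edgeR test with no filter (adjusted p 8.6e-06) or with a filter of 1 CPM (adjusted p 0.0409).

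Markers of the secretory cells of the crypt also differed between the groups. Of 9 goblet cell markers, 3 were lower at an unadjusted p below 0.05 (Muc2, Spdef and Atoh1; 7.65% of all tested genes were) and 0 were higher. The median log2 fold change of the 9 was -0.17, with 5 negative values and 4 positive ones, Tff3 (0.18), Spink4 (0.17), Zg16 (0.44) and Guca2a (0.44). Their summed level was 1375 to 4730 CPM in wild type, against 2015 to 2248 CPM in knockout, with no marker at 0. Atoh1, the factor that specifies secretory cells, was at 9.40 ± 2.24 and 5.33 ± 0.601 CPM, and Spdef, which acts in goblet and Paneth cells, at 6.79 ± 0.779 and 3.83 ± 1.44 CPM. Muc2, the mucin of the goblet cell, was at 713, 519 and 1896 CPM in wild type, against 416, 540 and 580 CPM in knockout. Most Paneth cell markers were higher instead, 6 of 9 at an unadjusted p below 0.05 (7.53% of all tested genes) and 0 lower. The groups overlapped for 7 of the 9. Ang4 was near its wild-type level (log2 fold change 0.18 ± 0.35) and Pla2g2a was lower (-0.83 ± 0.45). After the length and GC correction, 4 of the 9 were higher and 1 lower at that threshold, beside 1780 of the 15122 tested genes in either direction. Their sums were 706 to 1163 CPM in wild type, against 1196 to 2832 CPM in knockout. Without the correction, 4 of 6 tuft cell markers were lower at an unadjusted p below 0.05 (sums of 92.6 ± 14.2 and 46.9 ± 18.7 CPM, SD, n = 3). So were 4 of 7 enteroendocrine markers (971 ± 137 and 601 ± 101 CPM), beside 7.65% of all tested genes. No Paneth, tuft or enteroendocrine marker was at 0. In bulk samples, fewer cells of a type and less RNA per cell cannot be told apart, and the part of these cell types in the Ern2 difference was not tested.

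Ern1 (chromosome 11, 106394650 to 106487852, minus strand) encodes IRE1alpha, the form found in all cells. It was at 8.52, 15.96 and 18.6 CPM in wild type, against 9.23, 9.40 and 9.16 CPM in knockout. The knockout libraries lay close together (9.26 ± 0.126 CPM), but wild-type replicate 1 lay below all of them, so the groups overlapped. The log2 fold change was -0.63 ± 0.26 (edgeR adjusted p 0.268). The unadjusted p was above 0.05 without any single library other than wild-type replicate 1, at 0.0642 to 0.146 in edgeR's quasi-likelihood test across all genes.

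Atf6 (chromosome 1, 170704674 to 170867771, minus strand) encodes the membrane-bound factor that is cut in the Golgi under stress. It was at 43.1, 35.5 and 40.5 CPM in wild type, against 27.1, 34.6 and 28.1 CPM in knockout, with knockout replicate 2 just under wild-type replicate 2. The log2 fold change was -0.41 ± 0.16 (edgeR adjusted p 0.247). Its unadjusted p was above 0.05 without wild-type replicate 1, knockout replicate 1 or knockout replicate 3, at 0.0680 to 0.105 in edgeR's quasi-likelihood test across all genes. Summed over the 3 sensors, the level was 75.5 ± 9.08 CPM in wild type, against 48.5 ± 3.39 CPM in knockout (SD, n = 3), and the groups did not overlap. The third kind of sensor, PERK (Eif2ak3), was listed with its branch. It was at 6.02, 4.71 and 6.55 CPM in wild type, against 5.29, 3.96 and 4.58 CPM in knockout, a log2 fold change of -0.32 ± 0.26 (edgeR adjusted p 0.598). Atf6b, listed with the ATF6 branch, was at 7.77, 6.84 and 8.28 CPM in wild type, against 6.79, 7.23 and 4.44 CPM in knockout. Its log2 fold change was -0.31 ± 0.24 (edgeR adjusted p 0.594).

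The transcription factors downstream of the sensors did not pass the test, and their signs differed. Xbp1, whose mRNA is spliced by IRE1, was at 37.7, 53.2 and 39.4 CPM in wild type, against 25.5, 42.1 and 32.4 CPM in knockout (log2 fold change -0.38 ± 0.20, edgeR adjusted p 0.401). Counts per gene do not separate its spliced from its unspliced form. Atf4, which acts in the PERK branch, was at 32.6, 39.3 and 39.9 CPM in wild type, against 39.7, 43.2 and 47.3 CPM in knockout (0.22 ± 0.15). Ddit3, which encodes the death-associated factor CHOP, was at 2.46, 7.94 and 3.65 CPM in wild type, against 7.96, 5.85 and 7.79 CPM in knockout (0.62 ± 0.37, edgeR adjusted p 0.466). Wild-type replicate 2 was as high in Ddit3 as the knockout libraries, and without it the log2 fold change was 1.22 (edgeR adjusted p 0.133). Without wild-type replicate 1 it was 0.30, after the length and GC correction 0.29, and the gene had 62 to 231 counts per library. Exons of Mars overlap Ddit3 over 7.0% of the length of its longest transcript.

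In ER-associated degradation, which pulls misfolded proteins back to the cytosol, Herpud1 was higher and the other 3 genes were lower in knockout by amounts that did not pass the test. Herpud1, a scaffold of the ubiquitin ligase, was at 10.9, 9.80 and 12.9 CPM in wild type, against 13.1, 14.5 and 17.0 CPM in knockout, with no overlap (0.41 ± 0.19, edgeR adjusted p 0.345). Syvn1, which encodes the ligase HRD1, was at 19.7, 24.9 and 22.1 CPM in wild type, against 16.6, 19.95 and 16.4 CPM in knockout (-0.33 ± 0.17, edgeR adjusted p 0.379). Edem1, which picks out trimmed glycoproteins, was at 26.1, 22.9 and 23.2 CPM in wild type, against 19.3, 21.1 and 21.0 CPM in knockout, again with no overlap (-0.23 ± 0.15). Sel1l, the partner of the ligase, had a log2 fold change of -0.23 ± 0.17.

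The 9 genes with either form of the stress element in their promoter had a median log2 fold change of 0.15, and 0 of 9 had an unadjusted p below 0.05 (lowest value 0.0555 in edgeR's quasi-likelihood test across all genes, for Herpud1). The 22 genes whose promoter held neither form had a median of 0.16, and 7 of 22 had an unadjusted p below 0.05. The 8 genes with no promoter entry could not be placed in either group. Their median was 0.024, and 3 of the 8 (Ern2, Hyou1 and Atf6) had an unadjusted p below 0.05. Of all tested genes 15.2% were below it, and the difference between the 9 and the 22 was not tested. The values of the 9 ran from -0.33 for Syvn1 to 0.41 for Herpud1. The wild-type level of the 9 had a median of 50.1 CPM, beside 20.6 CPM for the 22 without.

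**Figure D4:**
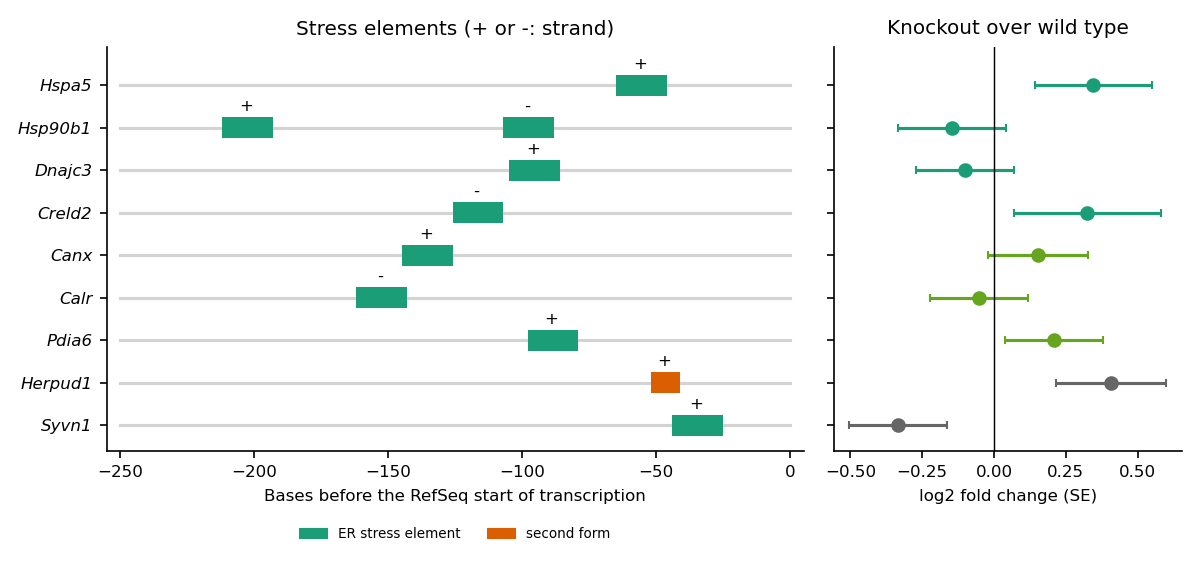
Left, position of each ER stress element in the 250 bases before the RefSeq start of the 9 genes that hold one, with its strand; right, log2 fold change of the same genes, Apln knockout over wild type, with SE, coloured by role. The 9 elements of the first form lie 212 to 26 bases before the start, and the fold changes of these genes lie on both sides of 0.

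Set side by side, the medians of the small translocon subunits and of the sensors lay on opposite sides of 0. Of the small subunits, Ssr2 was at -0.021, on the side of the sensors, and Ssr3 at 0.22 ± 0.17. The median log2 fold change was 0.59 over the 5 small subunits and -0.63 over the 3 sensors, a difference of 1.23. The sensors here are Ern1, Ern2 and Atf6, without Eif2ak3 (-0.32) and Atf6b (-0.31), and the median rests on that choice. Within each library the mean log2 CPM of the small subunits minus that of the sensors was -0.574, -0.773 and -0.591 in wild-type replicates 1, 2 and 3. It was 0.635, 0.705 and 0.543 in the knockout replicates. This difference was negative in each wild-type library and positive in each knockout library, with means of -0.65 ± 0.11 and 0.63 ± 0.081 (SD, n = 3). The sign of the difference holds only for CPM without length scaling. Per kilobase of the longest transcript, the median wild-type level was 15.1 CPM for the small subunits and 5.48 CPM for the sensors. These genes were chosen with earlier results known, and this contrast carries no test.

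Transcript length ran along with this contrast. Over all tested genes with a length, the log2 fold change had a median of 0.25 in the eighth with the shortest longest annotated transcript (56 to 1094 nucleotides) and -0.19 in the eighth with the longest (from 5888 nucleotides). Over genes, which are not independent replicates and share the libraries, Spearman's rho between log2 fold change and length was -0.26 for 15111 tested genes and -0.53 for the 39. Leaving out the small subunits and the sensors, it was -0.45 over the other 31. The longest transcript of Sec61b has 723 nucleotides, that of Ern1 6946 and that of Atf6 7246. Those of Ern2 and Ssr3 both have 2957 nucleotides, and that of Ssr4 has 2568. The principal transcript of Ssr4 is shorter, at 765 nucleotides, while that of Ern2 has 2914. After a correction for length and GC content fitted within each library, the difference between the medians was 0.88 in place of 1.23. It was 0.80 where the principal transcript gave the length.

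The correction moved the genes by different amounts. Ern2 was at -1.18 after the correction and Ssr4 at 0.83, against -1.21 and 0.89 before it. Sec61b went from 0.59 to 0.41, Spcs1 from 0.57 to 0.29, Ern1 from -0.63 to -0.47 and Atf6 from -0.41 to -0.28. Where the principal transcript gave the length, Ssr4 was at 0.70, Sec61b at 0.34 and Ern2 at -1.155. With the correction on the longest transcript, 2 genes were higher at an unadjusted p below 0.05 (Ssr4 and P4hb). At that threshold 4 were lower (Ern2, Hyou1, Xbp1 and Pdia3), and 1780 of the 15122 tested genes were below it in either direction. Ssr1, with the longest transcript of the 39 at 9333 nucleotides, changed sign, from -0.032 to 0.12, and the signs of Dnajb9 and Sdf2l1 turned from positive to negative.

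**Figure D5:**
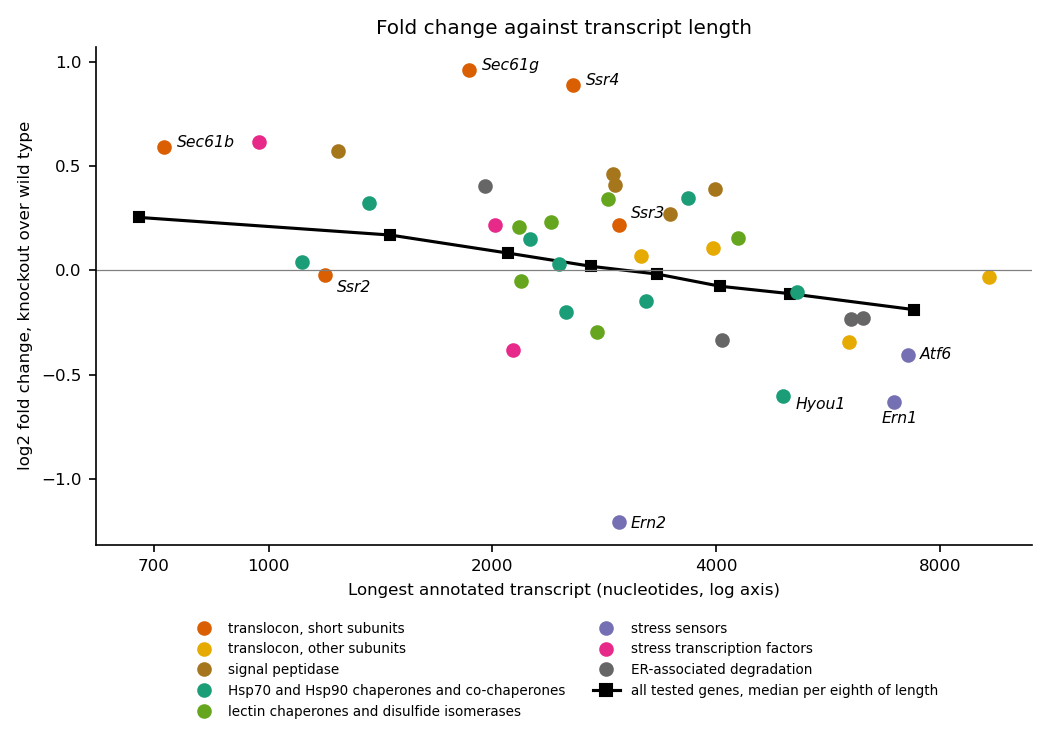
Log2 fold change of the 39 genes, Apln knockout over wild type, against the length of the longest annotated transcript (nucleotides, log axis), coloured by role; black squares give the median of all tested genes in each eighth of length. The squares run from 0.25 down to -0.19, Sec61b, Ern1 and Atf6 lie on the same side of 0 as the squares near them but farther from it, and Ern2 is the lowest point, at -1.21.

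Per kilobase of the longest transcript, the 39 genes covered a wide range of levels. In wild type Hsp90b1 had the highest level, 142 ± 7.47 CPM per kilobase, followed by Hspa5 at 70.0 ± 10.1 and Pdia3 at 68.8 ± 11.1 (SD, n = 3). Hspa5 and Pdia3 did not differ beyond their spread. Calr (61.7) and P4hb (59.4) came next, then Canx (45.0), Ssr2 (33.9) and Ssr3 (33.5). At the low end were Ern1 at 2.06 ± 0.750 and Sec61g at 0.762 ± 0.387 CPM per kilobase. Of the other sensors, Ern2 was at 7.27 ± 2.40 and Atf6 at 5.48 ± 0.534 in wild type, which did not differ beyond their spread. In knockout Ern2 was at 3.14 ± 0.345 and Atf6 at 4.13 ± 0.563. Levels per kilobase depend on the transcript taken; with the principal one, Ssr4 in wild type was at 14.7 in place of 4.37.

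A further 92 genes of the same pathways, from lists that do not include the 39, were read in the same fit, and 90 of them passed the filter. None passed the adjusted threshold; 16 were higher and 8 lower at an unadjusted p below 0.05 (7.53% and 7.65% of all tested genes), and their log2 fold changes had a median of 0.0080. After the correction for length and GC content 10 were higher and 8 lower at that threshold. Of the 15122 tested genes, 1780 were then below it in either direction. The counts by list that follow are at that threshold without the correction. In the signal recognition particle and its receptor, 2 of 7 were higher and 1 lower: Srp14 (0.71 ± 0.21), Srp19 (0.59 ± 0.22) and Srp68 (-0.61 ± 0.18). In the oligosaccharyltransferase, which adds sugars to entering proteins, 1 of 10 was higher (Ostc, 0.56 ± 0.18) and 1 lower (Ost4, -0.48 ± 0.16). Of 14 genes for partners of the translocon, the ER membrane complex and the GET route, 5 were higher and 0 lower. The lowest p among them belonged to Get3 (Asna1), the ATPase that brings tail-anchored proteins to the ER. It was at 13.4, 13.0 and 21.4 CPM in wild type, against 27.4, 34.2 and 27.2 CPM in knockout, with no overlap (0.89 ± 0.21, edgeR adjusted p 0.0924). The ER membrane complex subunits Emc8 (0.64 ± 0.18) and Emc7 (0.67 ± 0.22) followed.

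At an unadjusted p below 0.05, 4 of 22 other folding enzymes were higher and 2 lower (7.53% and 7.65% of all tested genes). Lowest in p were Erp29 (20.03 ± 1.83 to 29.9 ± 1.27 CPM, wild type to knockout), the prolyl isomerase Ppib (25.4 ± 9.22 to 43.6 ± 2.20) and Cnpy2 (15.5 ± 2.14 to 22.8 ± 3.29). Agr2, the isomerase needed for mucin folding, was at 401 ± 149 and 433 ± 17.4 CPM, a log2 fold change of 0.11 ± 0.24. Of 16 other degradation genes 1 was higher (Derl2, 0.55 ± 0.23) and 0 lower at that threshold, with 6 positive fold changes and 10 negative ones. In the PERK branch, 2 of 11 were higher at that threshold and 1 was lower, Vldlr (-1.13 ± 0.37). The higher ones were the stress factor gene Atf3 (0.69 ± 0.22) and Eif2s1 (0.45 ± 0.18), which encodes the subunit that PERK phosphorylates. Ppp1r15a, the feedback phosphatase subunit GADD34, had a log2 fold change of 0.046 ± 0.33.

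The ATF6 branch, with the proteases that cut ATF6 and the related OASIS factors, had the lowest median of these lists. It was -0.31 over 10 genes, with 8 negative values and 2 positive ones. At an unadjusted p below 0.05, 3 of the 10 were lower and 1 higher (7.65% and 7.53% of all tested genes). Creb3l1, a membrane-bound factor of secretory cells, was at 43.1, 35.4 and 51.2 CPM in wild type, against 18.8, 30.9 and 28.8 CPM in knockout, with no overlap (-0.72 ± 0.20, edgeR adjusted p 0.132). Creb3l2 was at 6.14, 12.7 and 7.18 CPM in wild type, against 4.26, 4.79 and 4.72 CPM in knockout (-0.92 ± 0.29, edgeR adjusted p 0.165). Creb3, of the same family, was higher, at 4.12 ± 0.650 and 6.46 ± 0.460 CPM (0.65 ± 0.25). The part of goblet and Paneth cells in these differences was not tested.

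Markers of cells that the sort should have removed ranged from near 0 to 311 CPM in summed level. Ptprc, which encodes CD45, was at 2.76 ± 0.566 CPM in wild type, against 1.41 ± 0.335 CPM in knockout, and the 5 endothelial markers summed to 0.816 ± 0.648 and 0.875 ± 0.433 CPM. Immunoglobulin genes were higher and differed between libraries of the same group: 10 B and plasma cell markers summed to 290, 311 and 30.3 CPM in wild type, against 243, 103 and 98.8 CPM in knockout. Igkc and Igha made up most of this except in wild-type replicate 3, where Sdc1 was the highest of the 10 at 13.0 CPM. Sdc1 was at 9.03 to 19.4 CPM over the 6 libraries. Mzb1, an ER chaperone cofactor of plasma cells, was at 0 to 0.369 CPM. Fibroblast and muscle markers (7 genes) summed to 30.2, 18.8 and 1.07 CPM in wild type, against 9.13, 25.5 and 9.86 CPM in knockout. Dcn, a matrix gene of fibroblasts, made up much of this, with 14.5, 11.5 and 0.346 CPM in wild type, against 4.68, 10.97 and 3.16 CPM in knockout. The smooth muscle gene Acta2 was at 0.911, 0.241 and 0 CPM in wild type, against 1.12, 6.77 and 1.37 CPM in knockout (log2 fold change 3.04 ± 0.98, edgeR adjusted p 0.176). Knockout replicate 2, the library with the highest levels of most folding genes, held 147 counts of Acta2 and 52 counts of the muscle gene Des, more than any other library. Plasma cells are rich in ER chaperones; the part of plasma cell, fibroblast and muscle RNA in the levels above was not tested.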

How the data were processed

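Crypt epithelial cells were compared between 3 wild-type and 3 Apln knockout samples. The deposited table holds raw gene counts, which the authors made with STAR 2.6.1 and HTSeq on mm10, as named in the submitters' processing notes. Their annotation release and strand setting are not stated in the sources used. Names, coordinates and lengths came from GENCODE M21, which gave 28551 of 28564 identifiers a symbol. In R 4.3.3, edgeR 4.0.16 (filterByExpr with a count minimum of 10, TMM scaling, glmQLFTest, Benjamini-Hochberg adjustment over 15122 genes, threshold 0.05) compared the genotypes; log2 CPM used a prior count of 2. The test was tested on simulated data. A count of 0 would allow 3 counts, 0.0945 to 0.142 CPM per library; this covers counting error only, as reads carry no molecular identifiers. Libraries of a group differed beyond sampling noise (chi-square per degree of freedom 7.60 to 54.8). Near-identical copies were sought with blastn 2.17.0 (at least 95% identity over 200 bases). Alternatives used DESeq2 1.42.0, limma 3.58.1 (voom), other filters and scalings, length and GC corrections, a replicate block and each library left out. All 39 genes are named, with up to 3 of lowest p from each further list and Eif2ak3, Agr2 and Ppp1r15a; Creb3 and the pseudogenes and markers were named because a result turns on them. The 39 genes and the lists were chosen with earlier results of these data known.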

Additional observations from a re-analysis of the deposited data

How the results depend on the processing

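None of the 39 was called under every setting, and the number of calls over all genes depended on the method. Against 26 genes called by edgeR with TMM scaling, 1 was called with DESeq2 size factors, 1 with upper-quartile scaling, 1 without the 5 most abundant entries, 1 with the length and GC correction and 1 with that correction on the principal transcript, a setting chosen after seeing the data. The DESeq2 Wald test called 551, limma-voom 56, no filter 629 and a filter of 1 CPM in 3 libraries 117. Leaving out single libraries gave 0 to 358, with 358 without wild-type replicate 3. Of the 39, none was called at first, 2 with the Wald test (Ern2 and Hyou1), 3 with no filter (those and Ssr4), 1 with the 1 CPM filter (Ern2) and 0 to 1 with a library left out (Ssr4 without wild-type replicate 3). The number higher at an unadjusted p below 0.05 (5) was 9 with no filter, 2 with the length and GC correction, 3 on the principal transcript and 1 to 9 with a library left out. The number lower (5) was 3 with limma-voom, 2 on the principal transcript and 2 to 7 with a library left out. Over all genes, those below it in either direction numbered 2296 at first, 3422 with no filter and 2169 with limma-voom. They numbered 1780 with the length and GC correction, 1769 on the principal transcript and 1342 to 3073 with a library left out. With no filter more genes enter the fit, and the causes of these changes were not tested. The difference of medians between small translocon subunits and sensors (1.23) was 0.88 with the length and GC correction, 0.80 on the principal transcript and 1.02 to 1.40 with a library left out. The median log2 fold change of the 39 (0.11) was -0.0055 without wild-type replicate 1 and -0.011 without knockout replicate 2.

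Over 17 settings 27 of the 39 genes kept the sign of their fold change and 12 did not. With the length and GC correction, on the longest and then on the principal transcript, Ssr1 was at 0.12 and 0.12, Dnajb9 at -0.16 and -0.14, and Sdf2l1 at -0.12 and -0.12. With single libraries left out, Ssr1 ran from -0.14 to 0.041, Dnajb9 from -0.18 to 0.46, Sdf2l1 from -0.087 to 0.25, Ssr2 from -0.11 to 0.082, Sec61a1 from -0.089 to 0.18 and Sec62 from -0.057 to 0.40. Hsp90b1 ran from -0.35 to 0.034, Dnajc3 from -0.25 to 0.014, Manf from -0.019 to 0.40, Canx from -0.040 to 0.27, Calr from -0.17 to 0.085 and Pdia4 from -0.011 to 0.38.

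The replicate numbers were not shown to pair the samples: deviations of same-numbered libraries correlated at 0.0109 to 0.0569 over the 3 pairs, and 5 of 6 libraries correlated best with their own number. These numbers follow the titles; the deposited columns of the knockout are named KO1, KO3 and KO4. With the number as a replicate block, 173 genes were called over all and 1 of the 39 (Ern2, adjusted p 0.0219 in edgeR's quasi-likelihood test). With the replicate block and the length and GC correction together, 27 genes were called, 0 of the 39 were, 2 of the 39 were higher at an unadjusted p below 0.05, the difference of medians was 0.81, and Ssr1 was at 0.11, Dnajb9 at -0.062 and Sdf2l1 at -0.15. In that fit 1773 of all tested genes were below that unadjusted threshold in either direction. Depth limits Sec61g most, with 18 to 77 counts per library.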

Other observations

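The ER stress element marked few genes outside the 39. Either form was found before the start of 45 gene symbols in the RefSeq promoters, of which 9 were among the 39, 2 (Derl3 and Ero1b) were on the lists of further pathway genes and the others were neither. Of the 36 outside the 39, 15 were measured well enough to be tested, and their median log2 fold change was -0.13. At an unadjusted p below 0.05 in edgeR's quasi-likelihood test, 0 were higher and 1 was lower (7.53% and 7.65% of all tested genes). That gene was Pan2, named after its value was seen, a subunit of the enzyme that trims poly(A) tails, at 15.4 ± 1.62 CPM in wild type, against 10.9 ± 1.44 CPM in knockout (SD, n = 3; adjusted p 0.240). Nucb1, which encodes a calcium-binding protein of the Golgi, was at 38.9 ± 0.844 and 35.1 ± 1.16 CPM, and Alg12, a mannosyltransferase of the ER, at 4.02 ± 0.504 and 5.12 ± 0.413 CPM; both were also named after their values were seen, and neither passed the test.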
